A study of Mus musculus with 12 samples.

Results

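The effect of removing rod photoreceptors before Drop-seq (droplet-based single-cell RNA sequencing that counts the 3′ ends of transcripts with unique molecular identifiers, UMIs) was examined in the mouse retina. The 5 libraries labelled as rod-depleted retina, whose cell names carry the tag CD73FT, were compared with the 7 libraries labelled as whole retina, within each oxygen condition and day. They are all 12 libraries of the series, and after a minimum of 200 detected genes they held 10184 and 14588 of 24772 cells. All pups were of strain C57B6. NORM pups stayed in room air with their biological mother, and OIR (oxygen-induced retinopathy) pups had a foster mother, were kept in 75% O2 between days 7 and 12 after birth and were then returned to room air. The groups were P14 NORM (1 depleted and 1 whole library), P14 OIR (2 and 3), P17 NORM (1 and 1) and P17 OIR (1 and 2). The labels do not say whether a library holds 1 animal or several, so p-values measure only the spread between libraries, which may be technical.

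Rods are by far the most numerous cells of the mouse retina, and their outer segments carry the proteins of phototransduction. CD73, the ecto-5′-nucleotidase encoded by Nt5e, is a surface protein of rods, and antibodies to it are used to draw rods out of a retinal suspension so that bipolar, amacrine and glial cells are sampled more deeply. Dissociation of a tissue is known to break cells, whose RNA then enters droplets of other cells, and to switch on immediate early genes such as Fos. Müller glia, the radial glia that span the retina, are known for a strong early gene response to injury.

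The median number of UMIs per cell was 925 to 1016 in the depleted libraries and 304.5 to 1794 in the whole ones, with the lowest value in P17 NORM whole, which also kept the fewest cells (569). Cells fell into 28 clusters, named from marker genes, and early response and stress genes were kept out of the genes used for clustering. Run codes in the labels covered 10 of the 12 libraries, and of 6 codes only 1 held both fractions, the P17 NORM pair. Elsewhere fraction and run cannot be told apart, so the value within that pair is given beside the main results. The pair itself differed in Xist, an RNA of the inactive X chromosome of females (20.7 per 10000 depleted and 0 whole in cone-like cells). The labels give no sex of the animals, so sex and fraction cannot be told apart in it. A further feature of single libraries was cluster 19, led by crystallin genes of the lens, with 161 and 202 cells in replicates 2 and 3 of P14 OIR whole. Its best marker score was that of lens (3.925), with rod bipolar second (1.83). It is given by its number and kept as a class apart, since the list of rod bipolar transcripts took 5.46% to 6.63% of its UMIs and the crystallins 0.779% to 0.974%. Nt5e (chr9:88327197-88372092, + strand, GRCm38) was read as a check of the labels: rod-like cells of whole retina carried 1095 Nt5e UMIs, or 2.68 per 10000 (95% exact Poisson interval 2.52 to 2.84, counting error only), and no other class exceeded 0.43 per 10000. The 59 rod-like cells left in the depleted libraries held 2 Nt5e UMIs, or 0.788 per 10000 (0.0954 to 2.85).

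Rod-like cells made up 35.5% ± 9.57 (SD, n = 7) of whole retina libraries and 0.518% ± 0.640 (n = 5) of depleted ones. The depleted libraries held 0.0497% (P14 NORM), 0.363% and 0.0553% (P14 OIR replicates 1 and 2), 1.61% (P17 NORM) and 0.516% (P17 OIR), against a lowest whole value of 25.98% and a highest of 53.9%. The fractions did not overlap, and P17 NORM kept the most rods among the depleted libraries. Over all cells, 10 of 14 classes passed an exact permutation test of the fraction labels within oxygen and day (two-sided, Benjamini-Hochberg adjusted p of 0.013 for rods): 8 rose and 2, rods and amacrine cells, fell. That test had 120 arrangements and a smallest possible p of 0.00833.

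Loss of rods raises every other share, so the classes were also counted among cells that were not rod-like. There the inner retina was not sampled evenly: rod bipolar cells, the ON bipolar cells that receive rod input, rose, while cone bipolar cells, which carry cone signals, and amacrine cells, the inhibitory interneurons, fell. Rod bipolar-like cells made up 36.6%, 43.4%, 45.5%, 34.1% and 39.8% of the depleted libraries (here and below in the order P14 NORM, P14 OIR replicates 1 and 2, P17 NORM, P17 OIR), against 7.22% to 24.5% of whole ones. Their mean share was 39.9% ± 4.70 (SD, n = 5) against 16.2% ± 7.01 (n = 7), an adjusted exact permutation p of 0.018, and no depleted library overlapped a whole one. The same-run P17 NORM pair gave 34.1% and 24.5%. With cluster 19 counted as rod bipolar-like, which was chosen after seeing the data, the whole mean was 19.8% ± 4.69, with 17.4% and 23.95% in replicates 2 and 3 of P14 OIR whole; the fractions still did not overlap (adjusted exact permutation p = 0.017).

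Amacrine-like cells were the most under-represented neurons, at 8.55%, 3.59%, 8.79%, 7.42% and 8.03% of the depleted libraries against 16.9% to 31.4% of whole ones. The means were 7.28% ± 2.13 (n = 5) and 24.2% ± 5.23 (n = 7; adjusted exact permutation p = 0.018), without overlap, and the same-run pair differed alike (7.42% and 21.5%). Cone bipolar-like cells made up 12.9%, 9.62%, 10.9%, 21.1% and 7.93% of depleted libraries against 22.2% to 38.1% of whole ones (means 12.5% ± 5.15 and 28.5% ± 6.14, n = 5 and 7, adjusted exact permutation p = 0.018). These did not overlap either, but in the same-run pair they stood at 21.1% and 23.1%, and among all cells the share of cone bipolar cells did not pass (12.4% and 18.6%, adjusted exact p = 0.20). 

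Glial and vascular cells gained. Müller glia-like cells rose from 12.7% ± 1.97 to 18.8% ± 4.75 of non-rod cells, astrocyte-like cells from 0.526% ± 0.182 to 1.16% ± 0.371 and endothelial-like cells from 0.631% ± 0.496 to 2.16% ± 1.03 (n = 7 and 5, adjusted exact permutation p of 0.018 for each). Pericyte-like cells, the contractile cells of capillaries, rose from 0.909% ± 0.660 to 3.11% ± 1.68 (adjusted exact permutation p = 0.031). Each of these ranges overlapped between the fractions, and in the same-run pair the pericyte shares were 1.998% depleted and 2.17% whole. The Müller glia shares also lay close together in that pair, at 335 of 2452 depleted and 46 of 368 whole non-rod cells. Of the same totals, endothelial-like cells were 56 and 6, and astrocyte-like cells 17 and 1. Microglia or macrophage-like cells stood at 3.20% ± 1.64 and 1.2% ± 0.612 and did not pass (adjusted exact p = 0.054), nor did cone, ganglion, horizontal or ciliary cells or cluster 19. In all, 7 of 13 classes passed; between 5 and 9 passed when any 1 library was left out, except that 0 passed without P17 OIR depleted, where 40 arrangements remain and no p can fall below 0.025.

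**Figure D1:**
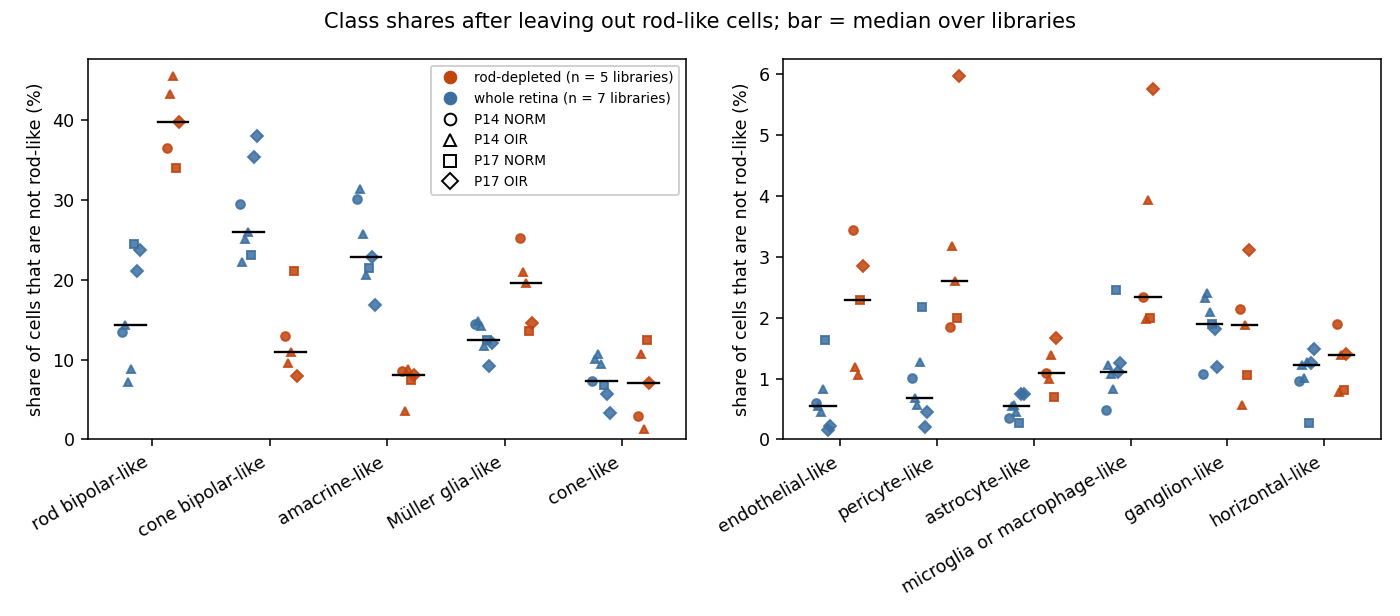
Share of each class among cells that were not rod-like (%, vertical axis), with 1 point per library, colour for the fraction and a bar at the median. Rod bipolar-like shares of the 5 depleted libraries all lie above those of the 7 whole libraries, and amacrine-like and cone bipolar-like shares all lie below.

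Within the 2 depleted neuron classes the subtypes were not lost in proportion. Of 11 clusters of cone bipolar-like and amacrine-like cells, 5 changed their share of the class by the same exact permutation test (2 higher and 3 lower, adjusted p of 0.018 for each). Among amacrine-like cells the gain was in cluster 14, a glycinergic amacrine-like cluster with Lamp5, Slc6a9 (the glycine transporter GlyT1) and Gjd2 (the gap junction protein connexin 36) among its leading genes. It held 23.8%, 21.7%, 36.5%, 22.5% and 38.7% of the amacrine-like cells of depleted libraries and 6.33% to 15.9% in whole ones, with no overlap (28.7% ± 8.23, n = 5, and 11.1% ± 3.30, n = 7). The same-run P17 NORM pair gave 22.5% and 6.33%.

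The other glycinergic cluster, cluster 9, did not pass (35.8% ± 12.0 and 30.5% ± 3.68). Both GABAergic amacrine-like clusters fell: cluster 8 from 41.7% ± 7.08 to 27.5% ± 9.36 and cluster 21, led by Cxcl14, Lpl and Bhlhe22, from 12.1% ± 5.32 to 3.25% ± 2.13. In the same-run P17 NORM pair cluster 8 held 64 of 182 depleted and 43 of 79 whole amacrine-like cells. Cluster 21 held only 3 of the 182 and 2 of the 79. The starburst amacrine-like cluster 26, cholinergic cells of direction selectivity, stood at 4.81% ± 2.43 and 4.57% ± 2.52 (adjusted exact permutation p = 0.79). These are shares of a class that itself fell, so a cluster that gains share need not have gained among all cells.

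Among cone bipolar-like cells, cluster 7 rose from 21.6% ± 6.60 (n = 7) to 44.2% ± 6.62 (n = 5). Its leading genes included Cck, Scgn, Vsx1 and Lect1, markers of more than 1 bipolar subtype, and it was left unnamed. Hbb-bs, a haemoglobin gene, was also among its 10 leading genes. Haemoglobin genes were not kept out of the genes used for clustering, and their part in this share was not tested. The fractions overlapped only in that P14 OIR depleted replicate 2 (35.4%) lay below P17 NORM whole (36.5%). In the same-run P17 NORM pair the shares lay close together: cluster 7 held 204 of 518 depleted and 31 of 85 whole cone bipolar-like cells. The OFF cone bipolar-like cluster 11, led by Slit2, Cdh8 and Tacr3 (a tachykinin receptor), fell from 21.6% ± 2.21 to 8.93% ± 4.87, with depleted values of 3.08%, 14.1%, 5.05%, 13.3% and 9.15% all below the whole range of 18.8% to 23.9%. Its same-run shares were 13.3% depleted and 18.8% whole. Clusters 10 and 13 (ON cone bipolar-like), 15 (OFF) and 17 (type 7, led by Igfn1) did not pass.

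**Figure D2:**
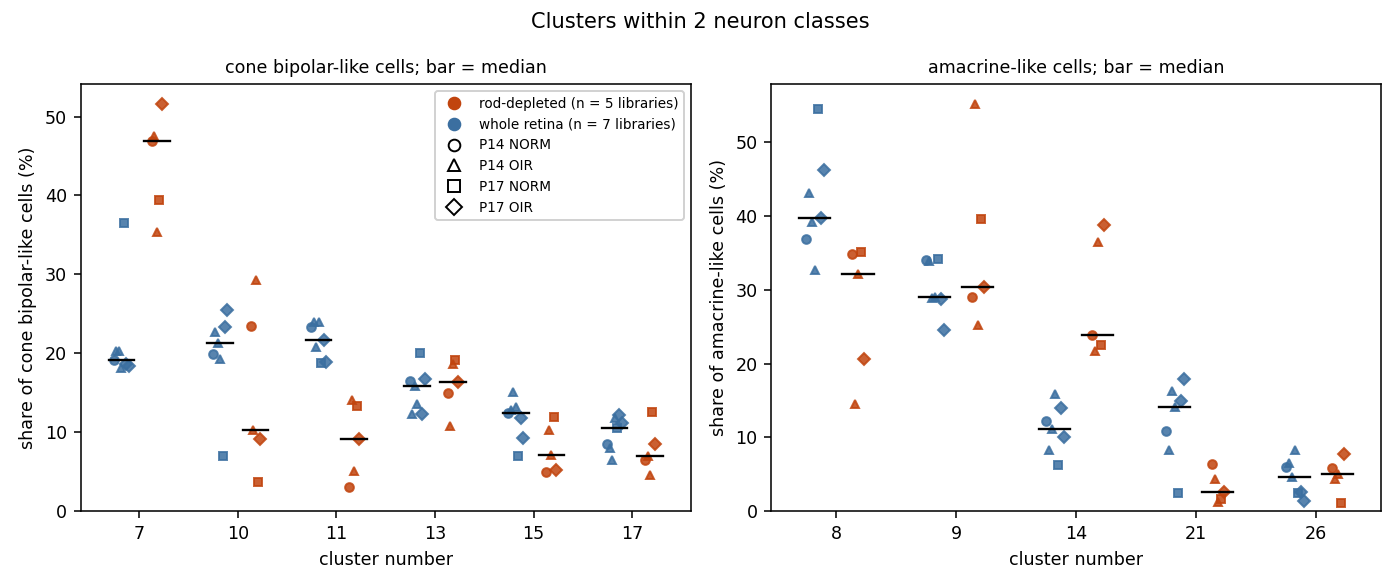
Share of each cluster within the cone bipolar-like (left) and amacrine-like (right) cells of each library (%, vertical axis; cluster number, horizontal axis), with 1 point per library and a bar at the median. Depleted libraries lie above whole ones in cluster 14 and below them in cluster 11 without overlap.

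Rod transcripts were then followed in cells that are not rods. The rod-specific list was not confined to rod-like cells, even where few rods were left. It took 1.34% to 2.05% of cone-like UMIs in depleted libraries and 1.46% to 3.12% in whole ones. Sag in cone-like and Gngt1 in cone bipolar-like cells stood high in depleted libraries, as given below. To show what the list holds at the sequence level, its promoters were read from RefSeq (GRCm38.p6) as the 250 bases before the first listed start. That start can lie inside the gene as GENCODE places it, and for Gngt1 and Cnga1 the match shown does so too. Of the 15 rod-specific genes 11 had an entry, and 5 of these (45.5%) held TAATCC on either strand, the core of the homeodomain site that CRX and OTX2 are known to bind in photoreceptors, against 6.25% of all 32851 entries. A match is a description of these letters, not of binding. Each match is shown within 30 bases, on the strand of the gene, with the motif (TAATCC, or GGATTA where it lies on the other strand) in capitals.
Sag, rod arrestin, chr1:87803581-87803610, + strand: taaagaggtttaGGATTAaaaaaaaaaaaa
Gngt1, a rod transducin gamma subunit, chr6:3993952-3993981, + strand: tcatattaggggGGATTAtgaagaagcttt
Cnga1, a subunit of the rod cyclic nucleotide-gated channel, chr5:72642963-72642992, − strand: agtgtctcatttTAATCCtaatgataaact
Cngb1, the partner subunit, first match, chr8:95306626-95306655, − strand: ttctgcacatgcTAATCCtttgcacccggc
Cngb1, second match, chr8:95306593-95306622, − strand: tctagtgccaatTAATCCtggctgggtctg
Samd7, a photoreceptor regulator, chr3:30746142-30746171, + strand: aaggctaaggaaGGATTAtgctaaaggcta
For Sag, whose difference between fractions is given after these sequences, the whole 250 bases (chr1:87803430-87803679) are shown for context.
Sag: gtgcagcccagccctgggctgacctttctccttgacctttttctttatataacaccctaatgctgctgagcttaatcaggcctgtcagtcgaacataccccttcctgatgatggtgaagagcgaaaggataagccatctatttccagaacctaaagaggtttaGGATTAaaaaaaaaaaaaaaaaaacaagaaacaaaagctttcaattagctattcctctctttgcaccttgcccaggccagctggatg

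Gnat1, the alpha subunit of rod transducin (chr9:107674474-107679712, − strand, GRCm38), fell in 6 of the 7 classes tested. Levels are means over the cells of a class, in UMIs per 10000 of each cell's total, and differences are log2 of the level plus 0.2, depleted minus whole, from limma with oxygen by day as a covariate. In rod bipolar-like cells Gnat1 stood at 0.0812, 0.0803, 0.0678, 0.3135 and 0.05455 in the depleted libraries and between 1.07 and 11.9 (median 3.76) in the whole ones. No library overlapped, and P17 NORM was the highest library of each fraction. The log2 difference was −3.70 ± 0.25 (SE, limma adjusted p = 1.39e-08), and −4.56 in the same-run pair. Pooled over libraries, 8.44% of whole but 0.05% of depleted rod bipolar-like cells were in cluster 27, which had rods as its second-best marker score. With only clusters of at least 5 cells in every library, which leaves cluster 27 out, 51 genes of all kinds fell in this class instead of 81. Its part in the rod gene levels was not tested apart.

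Müller glia-like cells gave Gnat1 levels of 0.0228, 0.117, 0.0421, 0.165 and 0.09055 in the depleted libraries and between 0.758 and 13.9 (median 2.13) in the whole ones, without overlap (−3.26 ± 0.40, limma adjusted p = 0.000102; −5.27 in the same-run pair). P17 NORM was again the highest in both fractions. In amacrine-like cells the depleted values were 0, 0, 0.0626, 0.558 and 0.171 against 0.680 to 15.35 (median 2.615), also without overlap (−3.44 ± 0.30). The differences were −2.90 ± 0.29 in cone bipolar-like, −3.57 ± 0.39 in cone-like and −3.26 ± 0.55 in ganglion-like cells. Each of these 6 calls held when any 1 library was left out of the fit. In microglia or macrophage-like cells, for which only P17 OIR gave both fractions, Gnat1 differed by −3.77 ± 0.89 and did not pass (limma adjusted p = 0.14).

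Other rod genes fell with Gnat1. Of the 15 rod-specific genes, 12 of 12 tested fell in rod bipolar-like cells, where 1.16% of all genes were called lower. The counts were 12 of 12 in amacrine-like cells (2.09% of all genes lower), 12 of 13 in Müller glia-like cells (0.717%), 10 of 12 in cone bipolar-like cells (1.12%), 8 of 14 in cone-like cells (0.145%) and 5 of 11 in ganglion-like cells (0.278%). In microglia or macrophage-like cells 1 of 11 fell (0.0145%). The list's median log2 difference was −2.41, −2.30, −2.21, −2.32, −2.13, −2.00 and −2.73 in these classes, in that order, while the median over all genes tested lay between −0.05 and 0.01. None rose, in 85 tests over the classes with 60 falls.

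Sag fell by 3.45 ± 0.22 on the log2 scale in rod bipolar-like cells (depleted 0.351, 0.455, 0.290, 1.56 and 0.597; whole 3.85 to 21.3, median 7.45; limma adjusted p = 3.90e-09), without overlap. Gngt1 fell by 2.59 ± 0.31 there (adjusted p = 3.26e-05), also without overlap. The wider list of 34 phototransduction and outer segment genes, which holds the rod-specific ones, fell in 26 of 32 tested members in rod bipolar-like, 28 of 32 in amacrine-like, 25 of 30 in Müller glia-like and 20 of 32 in cone bipolar-like cells. In whole retina, its levels in a class followed those in rod-like cells across the 34 genes, with a Spearman rank correlation of 0.955 in Müller glia-like, 0.901 in amacrine-like, 0.816 in rod bipolar-like and 0.469 in cone-like cells. These are descriptions: the genes share libraries and are not independent. Summed, the rod-specific list took 0.153% to 1.10% of the UMIs of rod bipolar-like cells in whole libraries and 0.0198% to 0.0595% in depleted ones, against 6.70% to 10.8% in rod-like cells.

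**Figure D3:**
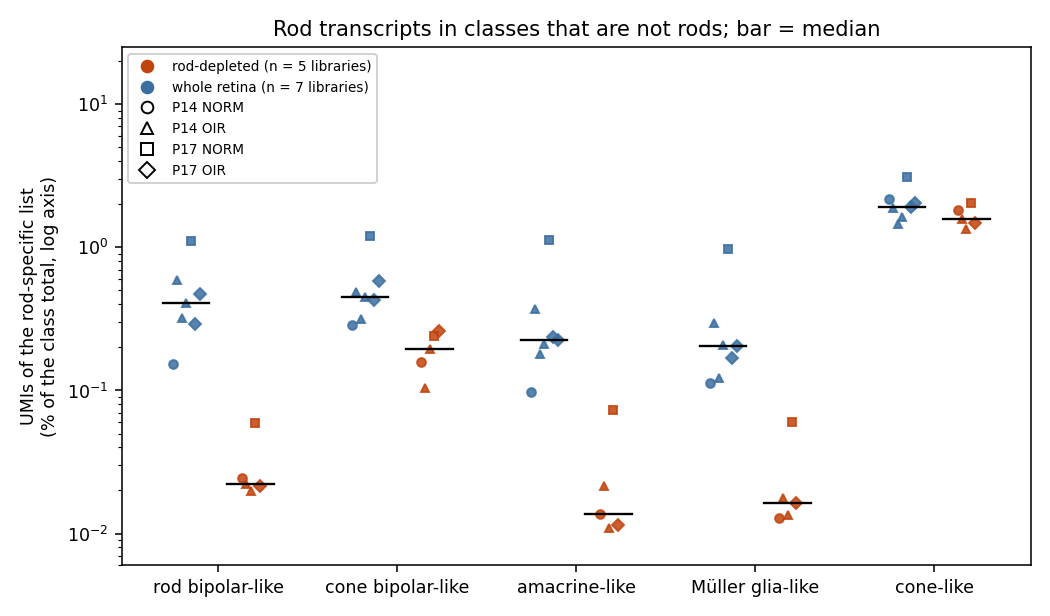
UMIs of the rod-specific list as a share of all UMIs of each class (%, log axis), with 1 point per library, colour for the fraction and a bar at the median. In rod bipolar-like, amacrine-like and Müller glia-like cells every depleted library lies below every whole library; in cone-like cells the fractions overlap.

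Cones and cone bipolar cells differed in which rod genes fell. In cone-like cells Cnga1 stood at 0, 0, 0, 0.0147 and 0.0965 in the depleted libraries and at 0.786 to 2.57 (median 1.79) in the whole ones, without overlap (−3.12 ± 0.41, limma adjusted p = 1.52e-05), and Nrl and Nr2e3, transcription factors of rod identity, also fell. Sag, by contrast, stood at 72.6, 58.3, 32.6, 111.8 and 73.0 against 60.2 to 106.2 in whole libraries (−0.32 ± 0.14, adjusted p = 0.52), and Gngt1 at +0.12 ± 0.15 (adjusted p = 0.86); neither passed and both overlapped. Gngt1 did not pass in cone bipolar-like cells either (10.96, 7.80, 12.0, 15.6 and 18.8 against 12.0 to 40.6; −0.57 ± 0.18, adjusted p = 0.10), although it fell in rod bipolar-like, amacrine-like and Müller glia-like cells. The 15 cone genes had 0 calls in cone-like cells (median 0.0996), and of 72 tests over all classes 3 rose, Kcne2 and Pde6h in cone bipolar-like and Opn1sw in amacrine-like cells. In cone-like cells the split of calls depended on scaling: 11 rose and 10 fell, but 0 and 9 with each library centred on its median, which moves the median of all genes to −0.305.

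The 4 haemoglobin genes, the oxygen carriers of red blood cells, rose in 17 of 28 tests over the 7 classes: 4 of 4 in rod bipolar-like (0.516% of all genes called higher), 3 of 4 in amacrine-like (1.34%), in cone-like (0.159%) and in ganglion-like (0.329%), 2 of 4 in cone bipolar-like (0.862%) and in Müller glia-like (0.216%) and 0 of 4 in microglia or macrophage-like cells (0.0435%). Hbb-bs, a beta-globin gene (chr7:103826534-103828096, − strand), stood at 7.14, 7.26, 2.30, 1.01 and 5.93 in depleted rod bipolar-like cells and at 0.0704 to 1.60 (median 0.302) in whole ones, overlapping at P17 NORM. The difference was +2.86 ± 0.46 (limma adjusted p = 0.00106) but −0.57 in the same-run pair, and it was +1.62 without the 4 rod bipolar-like cells in which haemoglobins took over 10% of UMIs. In Müller glia-like cells it was +3.02 ± 0.53 (−0.40 in the same-run pair, +1.86 without 4 such cells), and in amacrine-like cells +2.68 ± 0.67, which held in 4 of 12 fits with 1 library left out and reached an adjusted p of 0.13 in them.

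A few rod bipolar transcripts rose in cells that are not bipolar, among them Pcp2 in 4 classes. Pcp2, a Purkinje and bipolar cell protein that marks rod bipolar cells (chr8:3623371-3625545, − strand), stood at 3.46, 1.89, 2.47, 5.08 and 4.24 in depleted Müller glia-like cells and at 0.118 to 1.56 (median 0.874) in whole ones. The fractions did not overlap, and the rise of 2.04 ± 0.34 (limma adjusted p = 0.0026; +1.69 in the same-run pair) held in 12 of 12 fits with 1 library left out. Pcp2 also rose in amacrine-like cells (+1.57 ± 0.34; 9 of 12 fits, lost without P14 NORM depleted, P14 NORM whole or P14 OIR depleted replicate 2, adjusted p up to 0.076), in cone-like cells (+1.81 ± 0.35; lost without P14 OIR depleted replicate 2 or P17 OIR depleted, adjusted p up to 0.14) and in ganglion-like cells (+2.17 ± 0.39; lost without P14 OIR depleted replicate 2, adjusted p = 0.49). In rod bipolar-like cells themselves Pcp2 overlapped (+0.31 ± 0.16, adjusted p = 0.34).

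The 19 rod bipolar transcripts as a list had positive differences in 13 of 13 tested in Müller glia-like (median 0.832), 13 of 15 in amacrine-like (0.352) and 15 of 18 in cone-like cells (0.311), of which 2, 3 and 3 rose, and 1 fell (Pcp4l1 in amacrine-like cells, −0.86, holding in 2 of 12 fits), and none of 19 passed in rod bipolar-like cells (median −0.00406). In ganglion-like cells 13 of 18 were positive (median 0.661) and 2 rose, Pcp2 and Sebox. In microglia or macrophage-like cells 7 of 17 were positive and 10 negative (median −0.126), and 0 passed. Of all genes, 0.216% were called higher in Müller glia-like, 1.34% in amacrine-like, 0.159% in cone-like and 0.329% in ganglion-like cells. The list's median share of UMIs was 0.299% in depleted and 0.225% in whole Müller glia-like cells, and 1.02% and 0.951% in amacrine-like cells. It was 0.418% and 0.330% in cone-like and 0.744% and 0.878% in ganglion-like cells. Each of these ranges overlapped. Among those that rose was Gng13, a bipolar cell G protein gamma subunit (+1.34 in Müller glia-like, +1.44 in amacrine-like and +1.90 in cone-like cells, holding in 4, 9 and 6 of 12 fits). Trpm1, the transduction channel of ON bipolar cells, rose in cone-like cells (+1.72, holding in 4 of 12 fits). Rod bipolar cells were also the class whose share rose by the most percentage points, from 10.4% ± 4.79 to 39.7% ± 4.84 of all cells; its part in these levels was not tested.

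Rgs5, Id3 and single members of the Müller glia list rose in bipolar cells. Rgs5, a regulator of G protein signalling that marks pericytes (chr1:169655501-169695813, + strand), stood at 1.40, 1.44, 1.29, 1.07 and 3.65 in depleted cone bipolar-like cells and at 0 to 0.318 (median 0.160) in whole ones, and at 0.477, 0.891, 0.583, 0.546 and 1.83 against 0.0252 to 0.223 in rod bipolar-like cells. Neither pair of ranges overlapped, P17 OIR depleted was the highest in each, and the rises of 2.35 ± 0.29 (limma adjusted p = 4.91e-05) and 1.75 ± 0.25 (adjusted p = 0.000278) held in 12 of 12 fits. Id3, an inhibitor of basic helix-loop-helix factors, rose by 1.28 in rod bipolar-like and 1.70 in cone bipolar-like cells, each without overlap and in 12 of 12 fits; in rod bipolar-like cells it did not pass with the same cluster weights in every library (+1.06, adjusted p = 0.099). Those weights use only clusters with at least 5 cells in every library, which leaves out cluster 27 of rod bipolar-like and clusters 21 and 26 of amacrine-like cells; with the same clusters at their own weights Id3 still rose. The share of pericyte-like cells rose with depletion, as given above, and its part in these levels was not tested.

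Müller glia transcripts (18 genes) had positive differences in 12 of 13 in rod bipolar-like (median 0.540), 14 of 15 in cone bipolar-like (0.648) and 12 of 13 in cone-like cells (0.686), but 2, 2 and 1 rose. Of all genes, 0.516%, 0.862% and 0.159% were called higher in these classes. In amacrine-like cells 11 of 15 were positive (median 0.405) and 1 rose, where 1.34% of all genes did. The counts were 12 of 14 positive (0.930) and 1 rise in ganglion-like cells (0.329% of all genes). They were 9 of 15 (0.203) and 0 in microglia or macrophage-like cells. Over the classes the genes that rose were Vim and Sparc in rod bipolar-like, Cp and Apoe in cone bipolar-like, Sparc in amacrine-like and in ganglion-like, and Rlbp1 (a retinoid-binding protein) in cone-like cells. Cp, ceruloplasmin, rose by 1.28 in cone bipolar-like cells and held in 12 of 12 fits. Apoe, a lipid carrier, rose by 1.43 there and was lost without P14 NORM depleted (adjusted p = 0.051). Sparc, a matrix protein, rose by 1.35 in amacrine-like cells in 12 of 12 fits, but by 1.01 in rod bipolar-like cells in 6 of 12. With cluster 19 counted as rod bipolar-like, neither Sparc (+0.74, adjusted p = 0.092) nor Vim (+0.81, 0.057) passed there. The list had 1 fall, Dkk3 in amacrine-like cells (−0.72, holding in 3 of 12 fits). In Müller glia-like cells 0 of the 18 passed (median −0.0145). The list took 0.0962% to 0.147% of rod bipolar-like UMIs in depleted and 0.0521% to 0.121% in whole libraries.

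**Figure D4:**
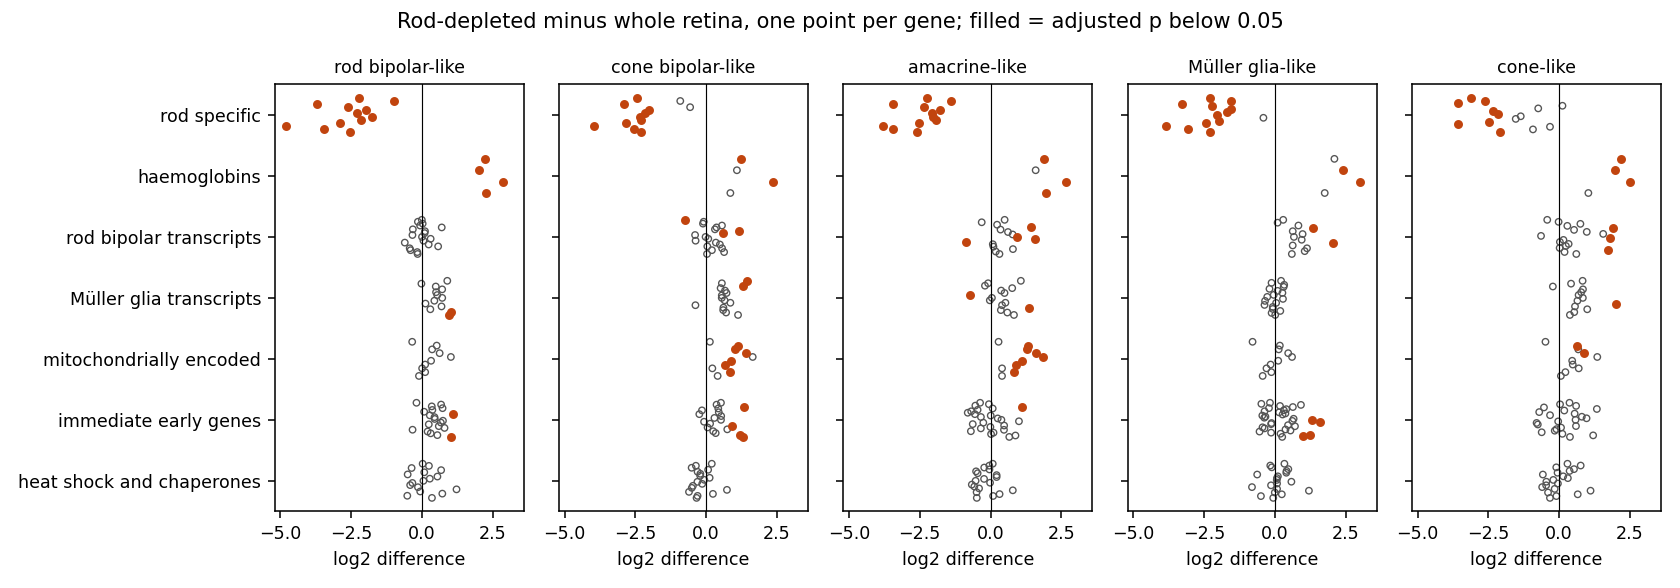
Log2 difference (depleted minus whole, horizontal axis) for each tested member of the gene lists (rows), by class (panels), filled where the limma adjusted p was below 0.05. Rod-specific genes lie left of 0 in every panel but for 1 member in cone-like cells, and haemoglobins lie right of 0.

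Early response genes rose in few of their members. Of 40 genes of the list, 4 of 33 tested rose in Müller glia-like cells (median 0.26), 2 of 20 in rod bipolar-like (0.447), 4 of 19 in cone bipolar-like (0.424) and 1 of 25 in amacrine-like cells (−0.00624), and 0 of 23, 0 of 23 and 0 of 32 in cone-like, ganglion-like and microglia or macrophage-like cells (0.113, 0.228 and 0.0172). None fell. The medians over all genes tested in these classes lay between −0.05 and 0.01, and the shares of all genes called higher are those given above. For the genes of this list that rose, all 8 had a RefSeq promoter entry. TGACGT, the core of the cAMP response element, was held by 2 (25%, against 6.47% of all), and TTCNNNGAA, the site type bound by STAT factors, by 2 (25%, against 7.02%). Of the 11 rod-specific promoters 0 held TGACGT, but 2 (18.2%) held TTCNNNGAA, so the latter was not particular to the early genes. They are shown as above, on the strand of the gene and within 30 bases, with the motif on either strand in capitals. For Socs3 and Zfp36 the match lies inside the gene as GENCODE places it.
Fos, a subunit of the AP-1 factor, chr12:85473812-85473841, + strand: agttccgcccagTGACGTaggaagtccatc
Cyr61, a secreted matrix-associated protein, chr3:145650027-145650056, − strand: gccgacagagctACGTCActgcaacacgcg
Socs3, the cytokine-induced inhibitor of JAK-STAT signalling, chr11:117969501-117969530, − strand: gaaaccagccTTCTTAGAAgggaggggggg
Zfp36, an RNA-binding protein that destabilises cytokine transcripts, chr7:28379229-28379258, − strand: gccacagcctgacTTCTGCGAAccgacagt
Fos, the gene most often read as a sign of dissociation, is shown with its whole 250 bases (chr12:85473640-85473889).
Fos: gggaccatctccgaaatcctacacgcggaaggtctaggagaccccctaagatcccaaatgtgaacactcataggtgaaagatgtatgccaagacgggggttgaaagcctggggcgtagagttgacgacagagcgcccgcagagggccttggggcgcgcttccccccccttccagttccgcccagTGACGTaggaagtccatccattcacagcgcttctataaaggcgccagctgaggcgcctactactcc

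In Müller glia-like cells Socs3 stood at 9.64, 5.88, 12.7, 0.376 and 10.6 in the depleted libraries and at 0.225 to 4.77 (median 3.10) in the whole ones. All depleted libraries but P17 NORM exceeded the whole range, and P17 NORM was the lowest of its fraction in both. Socs3 rose by 1.25 ± 0.22 (limma adjusted p = 0.0052; +0.44 in the same-run pair) and held in 12 of 12 fits with 1 library left out. Zfp36 stood at 37.3, 25.97, 43.6, 10.2 and 34.3 against 8.64 to 20.97 (median 14.5). It rose by 0.98 ± 0.18 (adjusted p = 0.0083; +0.23 in the same-run pair), and was lost without P14 NORM depleted, P14 NORM whole or P14 OIR depleted replicate 2 (adjusted p up to 0.062).

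Gadd45g, a growth arrest and DNA damage gene, rose by 1.30 ± 0.26 (adjusted p = 0.014), lost without the same 3 libraries (up to 0.095). Ier3, an immediate early regulator of survival, stood at 22.1, 20.5, 59.6, 2.98 and 23.1 against 4.10 to 16.3 and rose by 1.61 ± 0.35 (adjusted p = 0.027), but held in 4 of 12 fits and was −0.43 in the same-run pair. The genes most often read as early response did not pass in these cells. Fos stood at 140.6, 130.0, 125.6, 122.6 and 123.9 against 83.1 to 142.4 (+0.27 ± 0.15, adjusted p = 0.43), and Jun, Egr1 and Atf3 differed by −0.13, +0.15 and −0.48. The list as a whole took 3.78% to 6.94% (median 6.54%) of Müller glia-like UMIs in depleted libraries and 3.06% to 6.03% (median 5.22%) in whole ones, and both ranges overlapped.

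**Figure D5:**
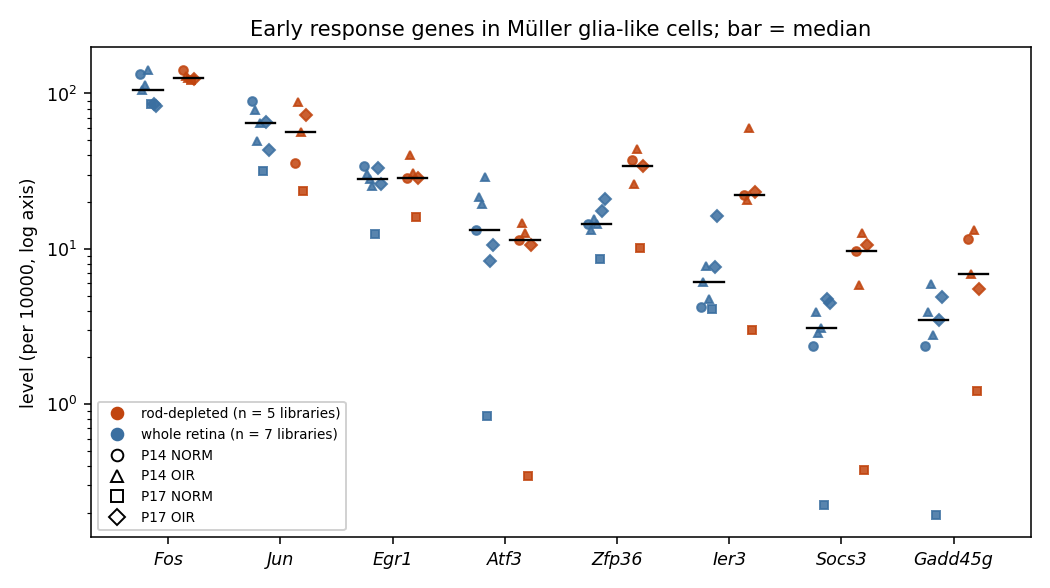
Level of early response genes in Müller glia-like cells (UMIs per 10000, log axis), with 1 point per library, colour for the fraction and a bar at the median. The lowest depleted value of Socs3, Zfp36 and Ier3 is P17 NORM; for Fos the fractions overlap at high levels.

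In neurons the levels were far lower. Fos rose in rod bipolar-like cells (3.68, 1.59, 2.46, 2.94 and 3.81 against 0.420 to 2.18, median 1.38) by 1.09 ± 0.22 (limma adjusted p = 0.011; +0.66 in the same-run pair), with overlap. Zfp36 rose there by 1.04 ± 0.22 without overlap. Both were lost without P14 NORM depleted, P14 NORM whole or P14 OIR depleted replicate 2 (adjusted p up to 0.075 for Fos and 0.13 for Zfp36), and Zfp36 with the same cluster weights in every library (adjusted p = 0.096). With cluster 19 counted as rod bipolar-like neither passed (Fos +0.63, adjusted p = 0.10; Zfp36 +0.92, 0.057). Cyr61 rose in cone bipolar-like cells (1.58, 0.964, 1.22, 0.867 and 1.73 against 0.294 to 0.541, median 0.370) by 1.32 ± 0.22 (adjusted p = 0.0018; +0.91 in the same-run pair), without overlap and in 12 of 12 fits. Cyr61 is also among the leading genes of the main Müller glia-like cluster.

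Zfp36l1, Zfp36 and Jund also rose in cone bipolar-like cells, by 1.31, 1.19 and 0.92, holding in 10, 6 and 4 of 12 fits. Like Cyr61, Zfp36l1 is among the leading genes of the main Müller glia-like cluster. In amacrine-like cells Cyr61 rose (+1.12 ± 0.30, adjusted p = 0.045) and held in 1 of 12 fits. Fos did not pass there and lay lower (7.59, 2.995, 4.62, 2.24 and 8.83 against 3.10 to 13.7, median 10.7; −0.81 ± 0.24, adjusted p = 0.060), and Egr1 differed by −0.68 (adjusted p = 0.054). The list's share of amacrine-like UMIs was 0.133% to 0.319% (median 0.272%) in depleted and 0.167% to 0.398% (median 0.360%) in whole libraries. Over all non-rod cells it was 0.663% to 1.90% (median 1.85%) and 0.533% to 1.22% (median 0.956%), beside the higher share of Müller glia-like cells in depleted libraries.

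The other stress lists had few calls. Heat shock and chaperone genes had 0 rises and 1 fall in 133 tests over the classes (St13 in ganglion-like cells, −1.52, holding in 4 of 8 fits). The unfolded protein and integrated stress response list had no call in 114 tests by limma, nor the NF-kB and cytokine list in 32. Of oxidative stress and metallothionein genes 1 of 94 tests passed, Mt1, a metal-binding protein, in amacrine-like cells (+0.93, holding in 5 of 12 fits). Few calls are not the absence of a difference: 14 of 16 unfolded protein genes lay lower in amacrine-like cells (median −0.426, all genes −0.0447), 5 of 5 NF-kB genes higher in Müller glia-like cells (0.733) and 13 of 15 oxidative stress genes higher in microglia or macrophage-like cells (0.551), none of them passing. The shares of single genes at an unadjusted p below 0.05 were 16.6% in rod bipolar-like, 17.8% in cone bipolar-like, 20.3% in amacrine-like, 13.6% in Müller glia-like, 8.75% in cone-like, 10.7% in ganglion-like and 3.34% in microglia or macrophage-like cells over all genes tested.

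Mitochondrially encoded transcripts rose in 7 of 10 tested in amacrine-like cells (median 1.02, where 1.34% of all genes were called higher), 6 of 10 in cone bipolar-like cells (0.846; 0.862%), 7 of 10 in ganglion-like cells (0.989; 0.329%) and 2 of 10 in cone-like cells (0.55; 0.159%). In rod bipolar-like, Müller glia-like and microglia or macrophage-like cells 0 of 10 passed (medians 0.218, −0.00216 and 0.0618). mt-Nd2, a subunit of respiratory complex I, stood at 50.0, 41.3, 57.6, 34.9 and 31.6 in depleted amacrine-like cells and at 9.42 to 17.6 (median 13.7) in whole ones. The fractions did not overlap, and the rise was 1.60 ± 0.19 (limma adjusted p = 3.46e-05; +0.98 in the same-run pair). In cone bipolar-like cells mt-Nd2 rose by 1.40 ± 0.16 without overlap (+0.74 in the same-run pair). Both held in 12 of 12 fits and with the same cluster weights in every library (+1.56 and +1.35). Malat1, a long non-coding RNA that stays in the nucleus, rose in amacrine-like (+1.07), cone bipolar-like (+0.95) and ganglion-like cells (+1.05). The median UMI count per cell was 808 in depleted and 1272 in whole amacrine-like cells, and 644.5 and 1062 in cone bipolar-like cells; neither passed (exact permutation, adjusted p = 0.23 for each), and its part in these levels was not tested.

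Synaptic and structural genes had few calls. Over the 7 classes 0.518% of all tests were called higher and 0.817% lower, and nothing is read from the counts of these lists beyond the genes named. Of 105 tests of synaptic vesicle and ribbon genes, 2 rose and 4 fell. Cplx4, a complexin of ribbon synapses, fell by 1.51 in amacrine-like cells and held in 12 of 12 fits, and by 1.06 in rod bipolar-like cells, where it held in 4 of 12. Axon and dendrite cytoskeleton genes had 3 falls and no rise in 126 tests, which were Map1b in rod bipolar-like and Müller glia-like cells (−0.98 and −0.96) and Sptbn1 in Müller glia-like cells. Crystallins had 0 calls in 19 tests by limma, beside the unadjusted shares above. Nuclear retained long non-coding RNAs rose in 7 of 40 tests: Malat1 in 3 classes, Meg3 in amacrine-like and ganglion-like cells (+0.76 and +0.83), Snhg11 in cone bipolar-like cells (+0.77) and Xist in ganglion-like cells (+4.68). Xist, transcribed from the inactive X chromosome of females, stood there at 13.1 (P14 OIR replicate 2) and 17.6 (P17 OIR) in depleted libraries and at 15.9, 0, 0 and 0 in whole ones; the labels give no sex of the animals, and sex and fraction cannot be told apart for it. Matrix and vessel genes rose in 3 of 33 tests, each of them Sparc, and genes of Müller and dendritic reactivity in 1 of 25 (Vim in rod bipolar-like cells, +0.95, holding in 2 of 12 fits).

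In amacrine-like cells, where 110 genes rose and 171 fell of 8192 tested (3.43%), genes that tell amacrine subtypes apart were among those called. Slc6a9 (7.89, 9.22, 13.7, 15.7 and 9.05 against 3.39 to 6.27), Lamp5, Traip and Cplx3 (complexin 3, of ribbon synapses) rose without overlap, by 1.23, 0.92, 1.97 and 0.84. Gad2, a GABA-synthesising enzyme, fell by 1.35 ± 0.23 (2.49, 1.37, 0.834, 2.21 and 1.99 against 3.31 to 6.33), also without overlap. These include leading genes of clusters whose shares changed, and with the same cluster weights in every library Slc6a9 (+0.47, limma adjusted p = 0.19), Lamp5 (+0.18, 0.63), Cplx3 (+0.42, 0.18) and Gad2 (−0.83, 0.063) no longer passed, whereas Traip, a ubiquitin ligase, did (+1.2, 0.0084).

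Cone bipolar-like cells, with 68 rises and 88 falls of 7890 genes (1.98%; 58 and 55 when the rod, cone and crystallin lists were left out of the totals and tests), had higher Grm6, the ON bipolar glutamate receptor (12.7, 13.1, 12.4, 8.61 and 10.3 against 2.95 to 6.82; +1.15 ± 0.16, adjusted p = 0.000226), without overlap. Isl1, an ON bipolar transcription factor, rose by 0.57. The calcium-binding protein gene Cabp5 fell by 0.73 and Tacr3 by 1.31. With the same cluster weights in every library none of the 4 passed (Grm6 +0.71, adjusted p = 0.053; Isl1 +0.15, 0.63; Cabp5 −0.40, 0.14; Tacr3 −0.60, 0.21).

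Rod bipolar-like cells had 36 rises and 81 falls of 6970 genes (1.68%), a split that turned to 87 and 67 with each library centred on its median. Their make-up differed too, with cells pooled over libraries: cluster 0 held 71.5% of them in depleted libraries and 22.6% in whole ones, and cluster 2 held 28.4% and 69.0%. The libraries varied widely: cluster 0 held 14 of 421 and 45 of 418 rod bipolar-like cells in the P17 OIR whole libraries. In the same-run P17 NORM pair the direction was the opposite, with 513 of 836 depleted and 68 of 90 whole cells in cluster 0. The clusters also differed in depth: relative to the library median, the median UMI count was 0.877 in cluster 0 and 1.545 in cluster 2. Rod bipolar-like cells had medians of 2509 and 2108.5 UMIs in P17 OIR whole, 599 in P17 NORM whole and 1199.5 in P17 NORM depleted. The part of depth in this split, and in the fits with the same cluster weights, was not tested. Beyond rod genes and haemoglobins the largest rises included Rps28, a ribosomal protein (7.07, 4.78, 6.58, 2.76 and 3.78 against 0.310 to 2.47, without overlap; +1.94 ± 0.34, adjusted p = 0.0027), which held in 12 of 12 fits and with the same cluster weights in every library (+2.05). Rpsa, a further ribosomal protein, rose by 1.38 with overlap. Map1b, a microtubule-associated protein, fell by 0.98 without overlap, but not past the threshold with those weights (adjusted p = 0.073). Müller glia-like cells had 16 rises and 53 falls of 7392 genes (0.933%; 22 and 38 when centred, 9 and 17 without the 3 lists). Besides rod genes, Sptbn1, a spectrin of the membrane skeleton, fell there by 1.27 ± 0.19 (1.85, 2.402, 2.05, 1.79 and 1.58 against 3.19 to 7.45, without overlap; adjusted p = 0.000964) in 12 of 12 fits.

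Ganglion-like cells could be compared in P14 OIR and P17 OIR only, with 1 depleted and 2 whole libraries of at least 20 cells in each. There 26 genes rose and 22 fell of 7903 (0.607%; 23 and 4 without the 3 lists), and several calls rested on P14 OIR depleted replicate 2, without which P17 OIR alone remains and Hbb-bs (adjusted p = 0.22) and Sparc (0.87) were lost. Microglia or macrophage-like cells, compared in P17 OIR alone (1 depleted and 2 whole libraries of 111, 22 and 22 cells), had 4 calls of 6889 (0.0581%). That fit has 2 residual degrees of freedom, 1 from the whole P17 OIR pair and 1 from the P14 OIR depleted libraries, and the lone depleted library is assumed to vary as they do. Calls ranged from 0 to 1021 over the settings tried, so 2 of the 4 are given as values only. Cd74, the invariant chain of antigen presentation, stood at 34.0 in the depleted library and at 1.15 and 1.07 in the whole ones, and Lrrc58 at 12.4 against 1.02 and 1.55.

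Whether the depletion difference itself depended on oxygen or day was tested by interaction. For oxygen no gene passed in the 5 classes with enough libraries (limma), with 320 (4.59%) of rod bipolar-like, 678 (8.59%) of cone bipolar-like, 529 (6.46%) of amacrine-like, 691 (9.35%) of Müller glia-like and 598 (8.65%) of cone-like genes at an unadjusted p below 0.05. For day 0 passed in amacrine-like (839, 10.2%, unadjusted) and Müller glia-like cells (829, 11.2%), 2 in rod bipolar-like (0.0287%), 1 in cone bipolar-like (0.0127%), 1 in cone-like (0.0145%) and 27 in ganglion-like cells (0.342%; 10.1% unadjusted). The ganglion test sets 1 depleted library of each day against the other, with 2 residual degrees of freedom from whole libraries, so a feature of 1 library and the day cannot be told apart. The mitochondrial tRNA mt-Ty in rod bipolar-like cells was 1.69, 1.01 and 1.22 in depleted P14 libraries and at most 0.0997 in whole ones, but 0.231 and 0.115 against 0.207 to 0.276 at P17. The difference at P17 minus that at P14 was −2.95 on the log2 scale (limma adjusted p = 0.0077), and −3.52 in cone bipolar-like cells (adjusted p = 0.019).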

How the data were processed

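Drop-seq libraries of mouse retina were compared by fraction. Per the submitters' processing notes, reads were handled with bcl2fastq and STAR 2.4.0 on mm10 (GRCm38); how the authors removed doublets or annotated cells is not given in the sources used here. A single table was deposited, in which the authors give natural log values, ln of 1 plus UMIs per 10000 of each cell's total, for 21408 genes and 31271 cells. Of its columns 5799, in 7 sets that match no sample's labels, were not used, and 25472 cells of the 12 libraries remained, with 36182149 UMIs. UMI counts were recovered from the deposited values by their step in each cell; 100% of values came out whole within 0.05. The columns of P14 NORM whole carry replicate number 8, so their match to that sample is less sure. 14 barcodes occurred in more than 1 library.

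Cells with at least 200 detected genes were clustered (scanpy 1.11.5, leidenalg 0.10.2; 2000 variable genes without the early response and stress lists, 30 principal components, 15 neighbours, resolution 1.0, seed 1) and classes were named "-like" from marker lists. Scrublet called 0.431% to 1.91% of cells per library as doublets; none was removed. Per library and class with at least 20 cells (50 for subtypes), the mean of UMIs per 10000 was taken and log2(mean + 0.2) fitted with limma 3.58.1 (R 4.3.3; trend, oxygen by day as 4 strata, Benjamini-Hochberg within a class, two-sided) for genes with a mean of at least 0.2 and a value above 0 in 3 libraries; a called gene has an adjusted p below 0.05. Fold changes on this scale understate those of low genes. Shares were tested by exact permutation of fraction labels within strata. Intervals cover counting error only. Scripts were tested on simulated data and used numpy 2.4.6, pandas 2.3.3, scipy 1.17.1 and matplotlib 3.10.9.

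Named genes are, per class, the 10 largest rises and the 10 largest falls that passed, as far as they are described, list members that passed, and the most abundant members of the rod, early response and heat shock lists. Members and the 19 lists were chosen with earlier results of these data known. Alternatives changed the pseudocount, filter, covariates, scaling, doublet removal, clustering, day and libraries, and the same cluster weights in every library, only clusters with 5 cells in every library, cluster 19 counted as rod bipolar-like and removal of haemoglobin-rich cells were added after seeing the data. Gene positions are from GENCODE on GRCm38 and promoters from RefSeq on GRCm38.p6, where Gnat1 has no entry. Values of 1 member of the rod lists are not reported here, though list counts and sums hold it.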

Additional observations from a re-analysis of the deposited data

Results flagged for a closer look

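In 4 classes the difference between depleted and whole libraries itself differed by day, by a test of the interaction of fraction and day (limma, adjusted p below 0.05). In rod bipolar-like cells the mitochondrial tRNA mt-Ty had a difference at P17 minus that at P14 of −2.95 on the log2 scale, and Rpsa, a ribosomal protein, one of −2.07 (adjusted p = 0.038): Rpsa stood at 3.07, 1.83 and 2.25 in depleted P14 libraries against 0.220 to 0.527 in whole ones, and at 1.74 and 1.30 against 1.01 to 1.60 at P17. In cone bipolar-like cells mt-Ty gave −3.52, with 3.69, 1.46 and 2.59 in depleted P14 libraries against at most 0.0940 in whole ones. In cone-like cells Xist, the RNA of the inactive X chromosome in females, gave 8.31. It was at 0 in 5 of 12 libraries, among them all 3 whole libraries of P17, while P17 depleted libraries stood at 20.7 and 26.3. The labels give no sex of the animals, so sex, fraction and day cannot be told apart for it.

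In ganglion-like cells 27 genes differed in this way, over 1 depleted and 2 whole libraries each at P14 OIR and P17 OIR, with 2 residual degrees of freedom that come from the whole libraries; a feature of 1 depleted library and the day cannot be told apart there. Cartpt, a neuropeptide precursor, gave −3.47 and Apbb2 3.49. Among the 27 was mt-Ty (−5.47).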

How the results depend on the processing

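Of 147 results for named genes, 117 passed and 30 did not. None of the 117 that passed reversed its direction under those of the 30 other settings that gave it a value. Of the called ones 98 had a value at P17 alone and 82 of these lost the call, 83 of 117 did with no filter, and 85 had one with the same cluster weights in every library, of which 27 lost it. The 7 classes that passed by share and the 5 subtypes rest on few arrangements, and with 1 library left out 0 to 9 classes and 0 to 6 subtypes passed. Rod-specific genes fell in 60 tests, in 20 with P17 alone and in 51 to 62 with 1 library left out.

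Counts of called genes moved more; the cause was not tested except where fewer genes or libraries enter. Rod bipolar-like cells (117) had 60 with no filter, 72 without the rod, cone and crystallin lists, 37 thinned to 300 UMIs, 309 at P14 alone, 26 at P17 alone, 57 with the same cluster weights in every library (44 of them shared), 210 with cluster 19 counted among them (112 shared) and 50 to 379 with 1 library left out, the highest without either P17 NORM library. Cone bipolar-like cells (156) had 38 with no filter, 57 thinned, 272 at P14, 0 at P17 and 55 to 303 with 1 library left out. Amacrine-like cells (281) had 54 with no filter, 103 thinned, 153 at P14, 10 at P17, 168 with the same weights (132 shared) and 135 to 545 with 1 library left out, the highest without P14 OIR depleted replicate 1. Müller glia-like cells (69) had 27 with no filter, 42 with additive oxygen and day, 26 without the 3 lists, 36 thinned, 226 at P14, 4 at P17 and 35 to 288 with 1 library left out. Cone-like cells (21) had 6 with a pseudocount of 0.05, 5 with no filter, 11 additive, 0 without the lists, 9 centred, 55 at P14, 7 at P17 and 7 to 23 with 1 library left out. Ganglion-like cells (48) had 26 with a pseudocount of 0.05, 0 with no filter, 21 additive, 27 without the lists, 28 from summed UMIs, 0 thinned and 23 to 241 with 1 library left out. Microglia or macrophage-like cells (4) had 2 and 1 with pseudocounts of 1 and 0.05, 1021 with no filter, 25 additive, 19 centred, 0 from summed UMIs, 0 thinned, 1 clustered with all variable genes, 0 clustered without rod lists and 10 to 20 with 1 library left out. Counts at P14 and P17 alone have fewer libraries, and thinned cells fewer UMIs.

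Early response genes rose in 11 tests, in 1 with no filter, 6 additive, 4 thinned, 0 at P17, 7 with the same weights and 2 to 15 with 1 library left out. All stress lists had 13 calls, 2 with no filter, 6 thinned, 20 at P14, 1 at P17, 8 with the same weights and 3 to 32 with 1 library left out.

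Replicate numbers are shared by depleted and whole libraries in P14 OIR, but deviations of same-numbered libraries correlated by −0.16 to 0.26, so they share only a number. With the replicate number as a block, calls were 57 in rod bipolar-like (all 57 shared), 72 in cone bipolar-like, 188 in amacrine-like, 43 in Müller glia-like and 18 in cone-like cells, and 8 over all stress lists. Shallow libraries limit low genes: P17 NORM whole had a median of 304.5 UMIs per cell.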

Other observations

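Cluster 19, which is led by crystallin genes and came almost all from replicates 2 and 3 of P14 OIR whole, carried Pcp2 as 0.726% and 0.913% of their UMIs, beside the 1.05% to 2.06% of whole rod bipolar-like cells and the 0.0956% to 0.266% of whole cone bipolar-like cells. The 19 rod bipolar transcripts took 5.46% and 6.63% of its UMIs, against 6.17% to 8.18% in whole rod bipolar-like and 1.33% to 1.95% in whole cone bipolar-like cells. Its second-best marker score was that of rod bipolar cells.

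A rod bipolar-like cluster of 128 cells, cluster 27, had rods as its second-best marker score. It held 16 cells of P17 NORM whole, where few cells were kept, but 1 of P17 NORM depleted, and 19 and 49 cells of the P17 OIR whole libraries but 0 of P17 OIR depleted.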
